A study of Mus musculus with 10 samples.

Results

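The genes described here are 38 mouse genes that copy DNA in S phase, measured in the subventricular zone (SVZ) after stroke in mice that overexpress Tlx and in wild type mice. They were chosen by symbol for their known roles, from the loading of the helicase at origins to the packaging of new DNA. The choice was made with earlier results of these data known. Older aliases were followed through RefSeq. All 38 had a probe on the Illumina bead array, 78 probes in all. A probe was kept where its detection p was under 0.05 in at least 4 of the 9 mice, which left 46 probes of 31 genes, out of 20401 probes and 11376 named genes tested. Each gene is described by the brightest of its kept probes, and for 27 of the 31 that probe was detected in every mouse. Of the 31 genes kept, 30 had a higher mean signal in Tlx overexpressing mice and 1, Ccne1, a lower one, with log2 changes of -0.10 to 0.54 and a median of 0.24 (1.18-fold), beside a median of 0.0011 over all named genes, of which 50.3% were higher. Of these, 1 gene, the cohesin acetyltransferase gene Esco2, rose past the threshold of limma's test over all probes, where 0.624% of all named genes rose. The array reads RNA from a whole dissected layer. More dividing cells, more of these RNAs in each dividing cell and a different makeup of the dissected tissue cannot be told apart. All 11 kept choroid plexus genes were lower in Tlx overexpressing mice, with a median of -0.83.

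The SVZ is the layer beside the lateral ventricle in which stem cells of the adult mouse brain divide and give rise to neuroblasts. The 4 Tlx overexpressing mice were 2995, 3155, 3157 and 3163, and the 5 wild type mice were c1, c2, 2989, 2996 and 3164. Tlx is the nuclear receptor encoded by Nr2e1, which keeps neural stem cells undifferentiated. All 9 were BL6 mice 8 weeks old with an ischemic stroke in the striatum of 1 side, and the SVZ was cut out by laser microdissection, so the wild type mice carry the same injury and there is no uninjured group. The labels do not state the promoter that drives Tlx, the hemisphere sampled or the time after stroke. The mouse names fall in 3 ranges, with 2995 beside wild type 2989 and 2996, with 3155, 3157 and 3163 beside wild type 3164, and with c1 and c2 in a range that holds no Tlx overexpressing mouse. What the ranges stand for is not stated. Values below are log2 signals in the order of mice given here, and mouse c1 is the mean of 2 arrays of the same animal.

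Between 20068 and 20590 of the 45281 probes (44.3 to 45.5%) were detected on an array. The 2 arrays of c1 had a Pearson correlation of 0.9964 over the probes tested, the highest of any pair of the 10 arrays, and differed by a median of 0.11 over the 31 genes. Between mice of 1 genotype the median SD over these genes was 0.18 in Tlx overexpressing mice and 0.15 in wild type mice. Nr2e1, the overexpressed gene, lay at 5.27 to 5.61 in Tlx overexpressing mice and 4.69 to 5.19 in wild type mice, a log2 change of 0.41 (SE 0.11) that did not pass (limma, adjusted p = 0.084). Egfr and Sox4, known from transit-amplifying progenitors, and the neuroblast genes Dcx, Tubb2b and Igfbpl1 were detected, which fits the labelled tissue. Over all tested probes 192 differed between genotypes at an adjusted p under 0.05 (0.941%). Counted by the brightest probe of each gene, 71 of 11376 rose in Tlx overexpressing mice (0.624%) and 57 fell (0.501%).

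DNA replication begins when the origin recognition complex, with Cdc6 and Cdt1, loads the ring of MCM proteins around DNA in G1. Cyclin E with Cdk2 and other kinases then turn that ring into a working helicase by adding Cdc45 and the GINS complex, and polymerases, a sliding clamp, nucleotide-making enzymes and histone chaperones follow the fork. Many of these genes are transcribed in dividing cells through E2F factors, and in the adult SVZ dividing cells are mostly the transit-amplifying progenitors and early neuroblasts.

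The means of nearly all kept members differed in 1 direction, so promoters of 4 of them are shown here, those of the members with the smallest p in the RefSeq promoter table (GRCm38.p6). The table holds 250 bases before to 50 bases after a gene's start for 32 of the 38 members, and Esco2, Gins1, Gins2, Ccne2, Mcm4 and Pole were not analysed here. The E2F consensus was searched on both strands in 4 forms, TTTCCCGC, TTTCGCGC, TTTGCCGC and TTTGGCGC, and matches are in capitals, 5′ to 3′ on the gene's strand. All 4 genes lie on the minus strand, Mcm6 at chr1:128359656-128359955, Mcm7 at chr5:138171834-138172133, Tyms at chr5:30073576-30073875 and Tk1 at chr11:117825965-117826264.
Mcm6: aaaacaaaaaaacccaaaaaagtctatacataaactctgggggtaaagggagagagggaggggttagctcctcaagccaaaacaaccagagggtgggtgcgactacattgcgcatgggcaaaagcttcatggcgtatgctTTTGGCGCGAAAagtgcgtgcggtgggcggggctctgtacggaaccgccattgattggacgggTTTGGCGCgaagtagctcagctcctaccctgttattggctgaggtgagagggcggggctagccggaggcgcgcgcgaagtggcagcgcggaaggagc
Mcm7: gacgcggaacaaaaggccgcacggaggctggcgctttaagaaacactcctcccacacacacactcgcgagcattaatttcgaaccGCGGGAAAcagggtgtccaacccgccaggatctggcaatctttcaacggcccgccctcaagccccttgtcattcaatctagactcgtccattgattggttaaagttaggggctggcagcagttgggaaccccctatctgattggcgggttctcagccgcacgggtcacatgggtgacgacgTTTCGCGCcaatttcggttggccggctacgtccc
Tyms: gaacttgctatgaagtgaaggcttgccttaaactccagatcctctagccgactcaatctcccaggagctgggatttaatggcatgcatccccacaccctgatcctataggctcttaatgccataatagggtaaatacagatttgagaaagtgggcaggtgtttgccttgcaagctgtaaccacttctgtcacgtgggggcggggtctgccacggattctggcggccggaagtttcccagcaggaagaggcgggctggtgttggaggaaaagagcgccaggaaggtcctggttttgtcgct
Tk1: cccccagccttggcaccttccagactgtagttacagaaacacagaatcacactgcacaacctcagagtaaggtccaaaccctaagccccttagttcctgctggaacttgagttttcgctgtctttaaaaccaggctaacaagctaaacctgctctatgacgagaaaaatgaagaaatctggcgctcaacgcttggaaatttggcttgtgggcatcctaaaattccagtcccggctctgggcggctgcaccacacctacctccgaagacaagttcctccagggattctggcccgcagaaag
The Mcm6 promoter held 3 matches, which begin at positions -110, -106 and -47 from the start, the first and second of them overlapping. In Mcm7 there were 2 matches, at positions -165 and 16, while the other promoter the table lists for Mcm7 had 0. The Tyms and Tk1 windows had 0 matches, which says only that these letters are not in these 300 bases. A match was found for 15 of the 32 members in the table (46.9%), 11 of them among the 26 with a kept probe, against 704 of 27025 genes in the table (2.6%). The letters describe the sequence and not binding, and the genes with and without a match were not compared in expression.

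**Figure D1:**
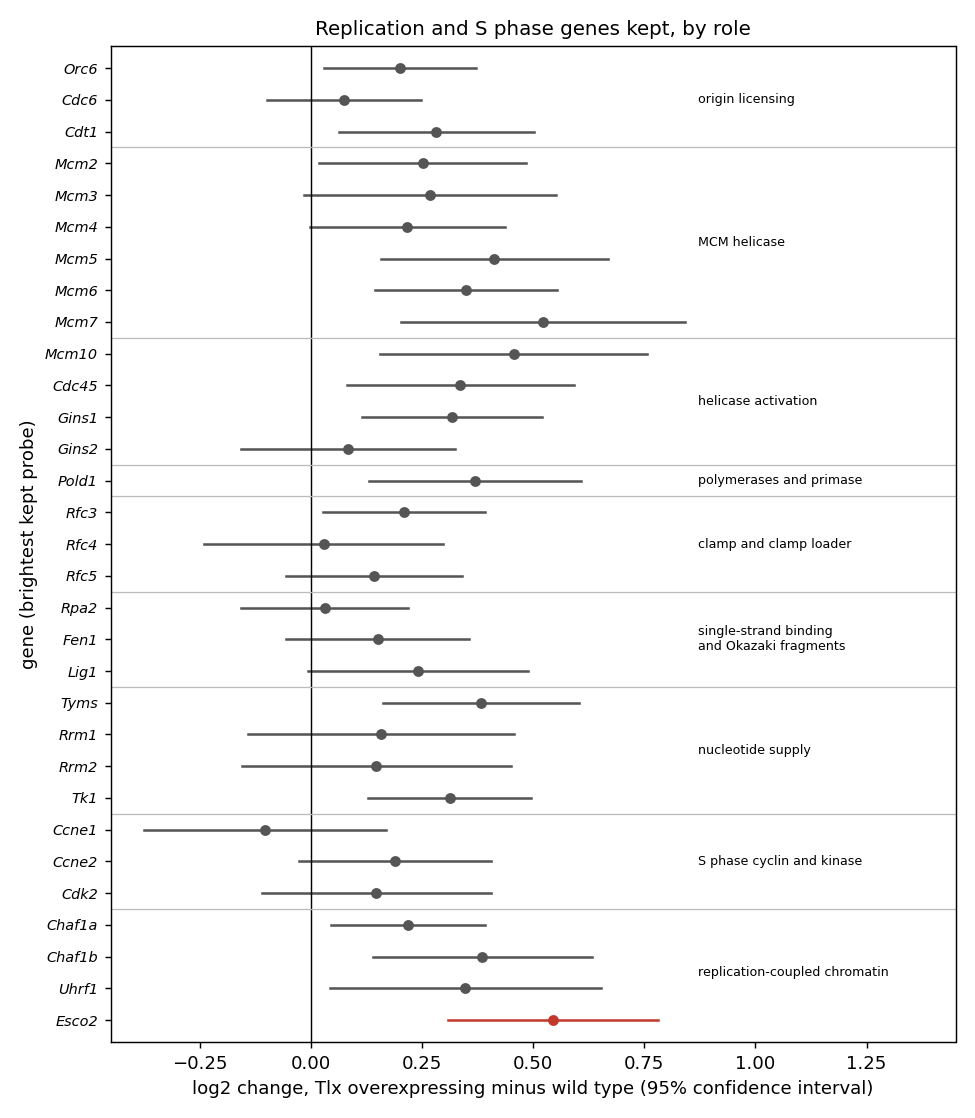
Log2 change of each of the 31 kept genes, Tlx overexpressing minus wild type, with its 95% confidence interval (points and horizontal lines, n = 4 and 5 mice), grouped by role from top to bottom. Esco2, in red, is the gene past the threshold, and Ccne1 is the gene whose point lies left of 0.

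Among the genes that license origins, 3 of 4 were kept, all with higher means in Tlx overexpressing mice. Of these 0 passed limma's test and 2 were at an unadjusted p under 0.05. Beside this count and those by role below, 8.5% of all named genes were higher and 9.71% lower at that p. Cdt1, which brings the MCM ring to the origin, was measured at 6.17, 6.05, 6.23 and 6.23 in Tlx overexpressing mice and at 5.61, 5.80, 6.02, 6.05 and 5.96 in wild type mice. Each of the Tlx overexpressing mice except 3155 lay above all wild type mice, and 3155 and wild type 2996 were level. The means were 6.17 ± 0.09 in Tlx overexpressing mice (SD, n = 4) and 5.89 ± 0.19 in wild type mice (SD, n = 5), a log2 change of 0.28 with an SE of 0.10 that did not pass (limma, adjusted p = 0.17). Orc6, a subunit of the origin recognition complex, had 9.20, 9.39, 9.45 and 9.45 in Tlx overexpressing mice and 9.20, 9.20, 9.12, 9.16 and 9.17 in wild type mice. Its signals in 3155, 3157 and 3163 were above every wild type mouse, whereas 2995 lay within the wild type range, and the change of 0.20 did not pass (adjusted p = 0.21). Cdc6, the ATPase that loads the ring, was near background, detected in 3 Tlx overexpressing and 2 wild type mice, with a change of 0.07 (SE 0.08). The largest subunit gene Orc1 was not detected in any mouse by either probe.

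All 6 genes of the MCM ring were kept and had higher means in Tlx overexpressing mice, with a median log2 change of 0.31 and a range of 0.22 to 0.52. None of the 6 passed limma's test over all probes, and 4 were at an unadjusted p under 0.05. Every subunit is needed for the ring, which unwinds DNA ahead of the polymerases. Mcm6 had 7.06, 7.22, 7.48 and 7.42 in Tlx overexpressing mice against 6.96, 7.01, 6.89, 7.005 and 6.87 in wild type mice. The groups did not overlap, but 2995 was 0.05 above the highest wild type mouse and 3157 was 0.47 above it. The change was 0.35 (SE 0.09, 95% interval 0.14 to 0.55, limma adjusted p = 0.090). Mcm7 had a change of 0.52 (SE 0.15, adjusted p = 0.10) by its brightest probe. Its signals were 6.17, 6.29, 6.37 and 6.24 in Tlx overexpressing mice and 5.75, 5.92, 5.71, 5.20 and 6.13 in wild type mice. The Tlx overexpressing mice were close together and above all wild type mice, and wild type 2996 was the lowest by 0.51. Averaged over the kept probes of each gene the change was 0.27 for Mcm7 and 0.23 for Mcm6, and without 2996 the brightest Mcm7 probe gave 0.39.

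In the other subunits the genotypes overlapped. Mcm5 was at 8.07, 8.36, 8.63 and 8.58 in Tlx overexpressing mice and 7.89, 8.19, 8.10, 7.91 and 7.90 in wild type mice, with 3155, 3157 and 3163 above all wild type mice and 2995 below wild type c2 and 2989. The means of 8.41 ± 0.25 in Tlx overexpressing mice (SD, n = 4) and 8.00 ± 0.14 in wild type mice (SD, n = 5) differed by 0.41 (SE 0.12, limma adjusted p = 0.10). Mcm2, Mcm3 and Mcm4 differed less, by 0.25, 0.27 and 0.22, with adjusted p of 0.25, 0.31 and 0.29. In each of these 3 genes 3157 and 3163 lay above every wild type mouse and 2995 and 3155 did not.

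**Figure D2:**
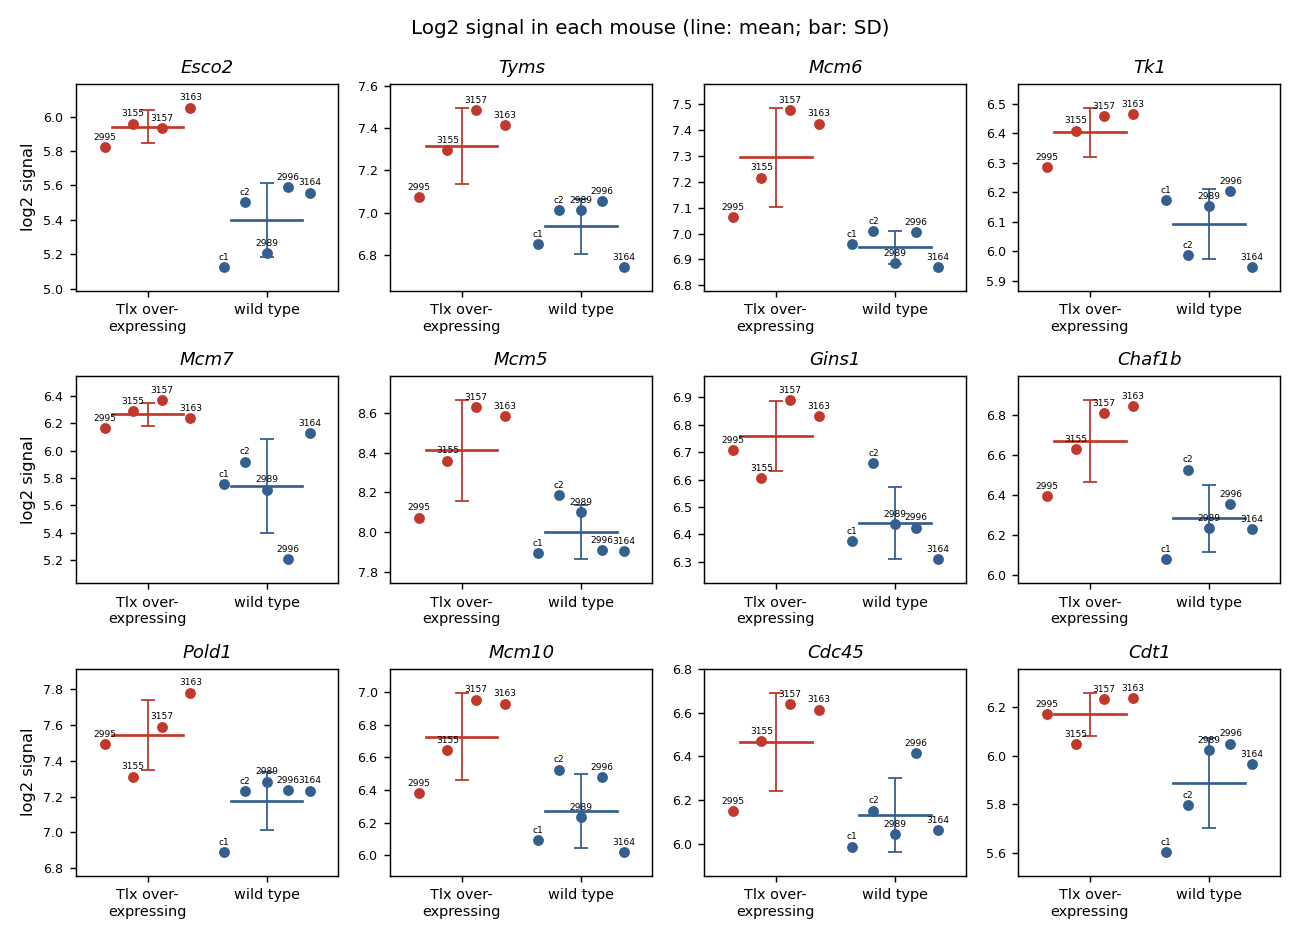
Log2 signal of the 12 members with the smallest p, 1 point a mouse, named, with a line at the mean and a bar of 1 SD (n = 4 Tlx overexpressing mice, red, and 5 wild type mice, blue). In Esco2, Tyms, Mcm6, Tk1, Mcm7 and Pold1 all red points lie above all blue ones, and in the other 6 at least 1 pair of points overlaps.

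Of the factors that turn the loaded ring into a moving helicase, 4 of 5 were kept and 0 passed limma's test, with 3 at an unadjusted p under 0.05. Mcm10, needed to start unwinding, was at 6.38, 6.64, 6.95 and 6.93 in Tlx overexpressing mice and 6.09, 6.52, 6.24, 6.48 and 6.02 in wild type mice. The 3 mice of the 3155 to 3163 range were above all wild type mice, and 2995 was below wild type c2 and 2996. The log2 change was 0.46 (SE 0.14, limma adjusted p = 0.12). Cdc45, which joins the ring at the fork, was at 6.15, 6.47, 6.64 and 6.61 in Tlx overexpressing mice and 5.99, 6.15, 6.04, 6.42 and 6.06 in wild type mice. Again 3155, 3157 and 3163 were highest, 2995 lay level with wild type c2 and below wild type 2996, and the change of 0.34 (SE 0.12) did not pass (adjusted p = 0.16).

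Gins1 and Gins2 encode subunits of the GINS complex, which holds Cdc45 to the ring. Gins1 had 6.71, 6.60, 6.89 and 6.83 in Tlx overexpressing mice and 6.38, 6.66, 6.44, 6.42 and 6.31 in wild type mice. All Tlx overexpressing mice were above 4 of the 5 wild type mice, and wild type c2 exceeded 3155. The change was 0.32 (SE 0.09, limma adjusted p = 0.11). Gins2 differed by 0.08 (SE 0.11), with 2 other probes of it at 0.02 and 0.28. Gins3 was detected in 1 Tlx overexpressing and 2 wild type mice and was not kept.

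At the fork itself the array measured few of the polymerase genes. Pold1, the catalytic subunit of polymerase delta, which extends the lagging strand, was at 7.50, 7.31, 7.59 and 7.78 in Tlx overexpressing mice and 6.89, 7.23, 7.28, 7.24 and 7.23 in wild type mice. The groups did not overlap, by 0.03 between 3155 and wild type 2989, and wild type c1 was 0.34 below the other wild type mice. The change was 0.37 (SE 0.11) and did not pass (limma, adjusted p = 0.11). Pole, the polymerase of the leading strand, was detected in 2 Tlx overexpressing and 0 wild type mice, and Pola1 and Prim1, which make the primers, in 0 mice, so no change is given for them. The single probe of Pcna, the sliding clamp and a common marker of dividing cells, was also below detection in all 9 mice, with a lowest detection p of 0.667, while other genes of the same phase were detected in every mouse. That probe gives no level for Pcna.

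The 3 genes kept of the complex that places the clamp on DNA, Rfc3, Rfc4 and Rfc5, had changes of 0.21, 0.03 and 0.14, and 0 passed limma's test, with 1 at an unadjusted p under 0.05. Rfc3 had 4.59, 4.53, 4.84 and 4.77 in Tlx overexpressing mice and 4.40, 4.47, 4.48, 4.50 and 4.53 in wild type mice. The groups were just apart, at a signal so low that 2 wild type mice fell short of detection (adjusted p = 0.22). Rfc4 reached its highest level, 5.12, in wild type 2996, within a wild type range of 4.46 to 5.12 that held all 4 Tlx overexpressing mice.

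Genes that handle the lagging strand showed small changes, and 0 of 3 passed limma's test, with 0 at an unadjusted p under 0.05. Rpa2, a subunit of the protein that coats single-stranded DNA, differed by 0.03 (SE 0.09, 95% interval -0.16 to 0.22). Fen1, the flap nuclease that trims Okazaki fragments, differed by 0.15 (SE 0.10), with wild type 3164 alone below 2995. Lig1, the ligase that joins the fragments, had 6.14, 6.07, 6.38 and 6.57 in Tlx overexpressing mice and 5.97, 6.02, 6.14, 6.25 and 5.87 in wild type mice. By this brightest probe 3157 and 3163 were above all wild type mice and the other Tlx overexpressing mice lay within the wild type range. The change was 0.24 (SE 0.11, limma adjusted p = 0.30), and the other kept Lig1 probes gave 0.28 and -0.01.

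Of the 4 enzymes of nucleotide supply, Tk1 and the brightest probe of Tyms separated the genotypes, while other Tyms probes gave different answers. By that brightest probe Tyms, thymidylate synthase, had 7.07, 7.30, 7.49 and 7.41 in Tlx overexpressing mice and 6.85, 7.01, 7.01, 7.05 and 6.74 in wild type mice. Mouse 2995 was 0.02 above wild type 2996 and the other Tlx overexpressing mice were further away, and the change was 0.38 (SE 0.10, limma adjusted p = 0.086). Averaged over its 3 kept probes, 1 of which was lower in every Tlx overexpressing mouse, the Tyms change was 0.07 (limma adjusted p = 0.67). Tk1, the thymidine kinase of the salvage route, had 6.29, 6.41, 6.46 and 6.47 in Tlx overexpressing mice and 6.17, 5.99, 6.15, 6.20 and 5.95 in wild type mice. The Tlx overexpressing mice were within 0.18 of each other and all above wild type 2996, the highest of its group, with a change of 0.31 (SE 0.08, adjusted p = 0.090). Rrm1 and Rrm2, the large and small subunits of ribonucleotide reductase, differed by 0.16 (SE 0.14) and 0.15 (SE 0.14), with adjusted p of 0.58 and 0.62. By these brightest probes wild type c2 had the highest Rrm1 signal of all mice and 2995 the lowest Rrm2 signal. The other kept probe gave 0.13 for Rrm1, with 3157 highest, and 0.24 for Rrm2, with wild type c1 lowest. None of the 4 enzyme genes passed, and 2 were at an unadjusted p under 0.05.

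Cyclin E and its kinase, which fire licensed origins, showed small differences, with 0 of 3 past limma's test and 0 at an unadjusted p under 0.05. Ccne1 had 4.65, 5.00, 4.50 and 4.36 in Tlx overexpressing mice and 4.53, 4.73, 4.86, 4.90 and 4.63 in wild type mice. The Tlx overexpressing mice held both the highest value, in 3155, and the lowest, in 3163, around a difference of -0.10 (SE 0.13). Ccne2 differed by 0.19 (SE 0.10), with 3155 and 3157 above all wild type mice. Cdk2 differed by 0.15 (SE 0.12) by its brightest probe and by 0.11 to 0.19 by its 3 other kept probes.

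The genes grouped here as replication-coupled chromatin held the member past the threshold, and all 4 kept were at an unadjusted p under 0.05. Esco2 encodes the acetyltransferase that locks cohesin onto the sister chromatids as they are made. Its signal was 5.82, 5.96, 5.93 and 6.05 in Tlx overexpressing mice and 5.13, 5.51, 5.21, 5.59 and 5.56 in wild type mice. The lowest Tlx overexpressing mouse was 0.23 above the highest wild type mouse, the widest gap of the 31 genes, and wild type c1 and 2989 lay below the other wild type mice. Esco2 rose by 0.54 on the log2 scale (1.46-fold, SE 0.11, 95% interval 0.31 to 0.78, limma adjusted p = 0.038). The call ended when mouse 3155, 3157, 3163, c1 or 2989 was left out, where its change was 0.48 to 0.55 and its adjusted p between 0.061 and 0.15. Without c1 and c2 together, the change was 0.49 (adjusted p = 0.090), and with the range of mouse names as a block it was 0.42 (adjusted p = 0.22).

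Chaf1a and Chaf1b encode subunits of the chromatin assembly factor that puts histones on new DNA. Chaf1b had 6.40, 6.63, 6.81 and 6.84 in Tlx overexpressing mice and 6.08, 6.53, 6.23, 6.36 and 6.23 in wild type mice. It had 3155, 3157 and 3163 above all wild type mice and wild type c2 above 2995, with a change of 0.39 (SE 0.11, limma adjusted p = 0.11). Chaf1a had 7.59, 7.47, 7.58 and 7.70 in Tlx overexpressing mice and 7.41, 7.45, 7.39, 7.36 and 7.23 in wild type mice. These groups were apart by 0.02, and the change was smaller, 0.22 (SE 0.08, adjusted p = 0.18). Uhrf1, which carries DNA methylation through replication, had 7.23, 6.99, 7.51 and 7.56 in Tlx overexpressing mice and 6.67, 6.96, 7.20, 7.20 and 6.82 in wild type mice. Mouse 3155 was level with wild type c2 and below wild type 2989 and 2996, and the change of 0.35 (SE 0.14) did not pass (adjusted p = 0.22). The remodeler gene Hells was not detected in any mouse.

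Counted together, 1 of the 31 kept genes rose past the threshold and 0 fell, where 0.624% and 0.501% of all named genes did so (1.13% in either direction). At an unadjusted p under 0.05, 17 were higher and 0 lower in Tlx overexpressing mice, where 8.5% and 9.71% of all named genes were. In 8 genes, Esco2, Tyms, Mcm6, Tk1, Mcm7, Pold1, Rfc3 and Chaf1a, every Tlx overexpressing mouse was above every wild type mouse, where 3.64% of all named genes were so ordered. In 0 genes was every Tlx overexpressing mouse below every wild type mouse, an order that 3.16% of all named genes had. In 9 more genes 3 of the 4 Tlx overexpressing mice were above every wild type mouse. That order was not counted over all named genes, so the 9 cannot be weighed against a background share. All 31 genes were read in the same 4 and 5 animals and are not independent of each other. They were also chosen with earlier results of these data known, which limits the comparison with all named genes.

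The Tlx overexpressing mice were not alike. Averaged over the 31 genes and centred over the 9 mice, the level was -0.02 in 2995, 0.09 in 3155, 0.26 in 3157 and 0.23 in 3163, against -0.21 in wild type c1, -0.01 in c2, -0.12 in 2989, -0.04 in 2996 and -0.17 in 3164. Mouse 3157 was the highest of all mice in 13 genes and 3163 in 11, while 2995 was so in 1 and was above the mean of all mice in 13 of 31. The lowest signal was in wild type 3164 for 12 genes and in wild type c1 for 11. Mouse 2995 thus lay within the range of wild type c2 and 2996, and 3157 and 3163 lay above every wild type mouse, as 3155 did by a smaller margin.

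Split by range of mouse names, the differences were unequal. Mouse 2995 minus the mean of wild type 2989 and 2996 gave a median log2 difference of 0.06 over the 31 genes, with 22 above 0 (71%, beside 49.8% of all named genes). The mean of 3155, 3157 and 3163 minus wild type 3164 gave a median of 0.40, with 29 above 0 (93.5%, beside 50.4% of all named genes). Each range has 1 mouse in 1 of its genotypes, so neither difference has a replicate check, and the difference between the ranges was not tested. Esco2 differed by 0.42 in both ranges, whereas Mcm10 differed by 0.03 and 0.82, Tyms by 0.04 and 0.66, and Mcm5 by 0.07 and 0.62. Mcm7 had the larger difference in the other range, with 0.71 in the range of 2995 and 0.17 in the range of 3155 to 3163, and the low wild type mouse 2996 belongs to the range of 2995.

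**Figure D3:**
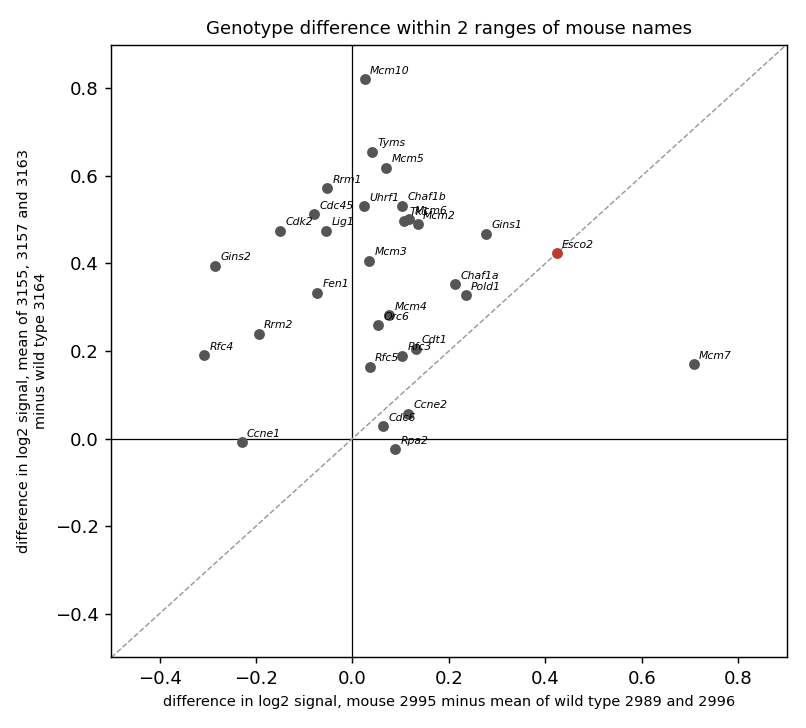
Genotype difference in log2 signal of each of the 31 kept genes, in the range of mouse 2995 (horizontal) and in the range of 3155, 3157 and 3163 (vertical), with the line of equal difference dashed. Most genes lie above the line, around medians of 0.06 horizontally and 0.40 vertically, Esco2 (red) lies on the line at 0.42 and Mcm7 at 0.71 horizontally.

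For 9 genes more than 1 probe was kept, and these probes did not always give 1 answer. Of the 15 kept probes besides the brightest, 12 had a higher mean in Tlx overexpressing mice and 3 a lower one. Mcm10 (0.46 and 0.38) and the brighter pair of Mcm6 probes (0.35 and 0.39) gave close values, but the dimmest Mcm6 probe gave -0.05. Lig1 gave 0.24 by its brightest probe and 0.28 and -0.01 by its other kept probes. Mcm7 gave 0.52 by its brightest probe and 0.02 by the other, on which wild type 2996 was the highest mouse and not the lowest. Tyms disagreed in sign. Its brightest probe gave 0.38, a dim one gave -0.33 (SE 0.09, limma adjusted p = 0.085), with all Tlx overexpressing mice below all wild type mice and detection in 2 of 4 Tlx overexpressing and 5 of 5 wild type mice, and the last gave 0.15. The annotation gives the same transcript for these 3 Tyms probes and the same for both Mcm7 probes, and what sets the probes apart was not tested.

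**Figure D4:**
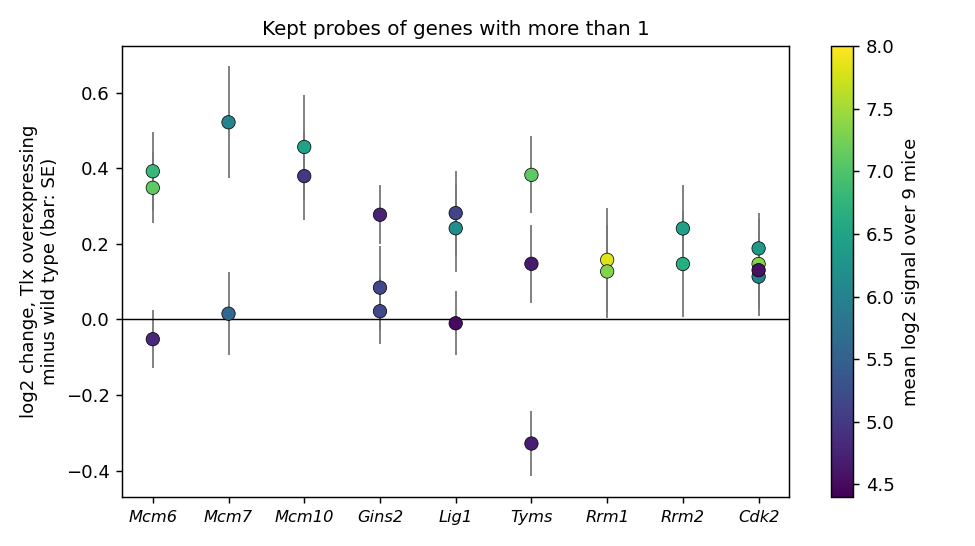
Log2 change of each kept probe of the 9 genes with more than 1, with a bar of 1 SE, coloured by the mean log2 signal over the 9 mice from dim (dark) to bright (light). Probes of Rrm1, Rrm2, Cdk2, Mcm7, Mcm10 and Gins2 lie on 1 side of 0. Those of Mcm6 and Lig1 lie on both sides, and those of Tyms lie between -0.33 and 0.38.

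Other genes of the replication machinery were also listed. Among 13 other origin and licensing genes 8 were kept, 6 of them higher in Tlx overexpressing mice, with a median change of 0.08 and 0 past limma's test (2 at an unadjusted p under 0.05). Cdc7, the kinase that activates the loaded ring, had the smallest p, with a difference of 0.41 (SE 0.10, adjusted p = 0.078). Of 23 other fork genes 20 were kept and 14 were higher, with a median of 0.04 and 0 past the test (5 at an unadjusted p under 0.05), led by the checkpoint adaptor gene Clspn at 0.46 (SE 0.14, adjusted p = 0.12) and the polymerase alpha subunit gene Pola2 at 0.31 (adjusted p = 0.15). The other kept Clspn probes gave -0.06 to 0.43. Of 10 other nucleotide and chromatin genes 8 were kept and 5 were higher, with a median of 0.05, and 1 was higher and 1 lower at an unadjusted p under 0.05. The lower one was Dut, which breaks down dUTP, with a difference of -0.33 (SE 0.09, limma adjusted p = 0.10). Atad2, a chromatin ATPase, rose by 0.37 (SE 0.08, limma adjusted p = 0.048), at 4.82, 4.83, 4.74 and 4.69 in Tlx overexpressing mice and 4.27, 4.45, 4.50, 4.43 and 4.36 in wild type mice, with no overlap.

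Among 12 genes of E2F and G1/S control 9 were kept and 8 were higher, with a median of 0.07 and 0 past limma's test (3 higher and 1 lower at an unadjusted p under 0.05). E2f3, an activator of S phase genes, differed by 0.41 (SE 0.10, adjusted p = 0.072), at 4.96, 5.27, 5.44 and 5.22 in Tlx overexpressing mice and 4.90, 4.75, 4.82, 4.71 and 4.92 in wild type mice. The groups were just apart. The kinase inhibitor genes pointed in opposite ways, Cdkn1b by 0.59 (SE 0.16, adjusted p = 0.084) and Cdkn1a by -0.54 (SE 0.16, adjusted p = 0.11), and E2f2 differed by 0.26 (adjusted p = 0.17). The other kept Cdkn1b probe gave 0.10.

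Mitosis genes were higher beside the replication genes. Of 30 genes listed 19 were kept and 18 were higher in Tlx overexpressing mice, with a median of 0.42. At an unadjusted p under 0.05, 14 were higher. Over all named genes, 50.3% were higher, 8.5% were higher at that p and 0.624% rose past the threshold. Mki67, Ccnb1, Ccnb2, Bub1, Cenpe, Kif20a, Tpx2, Nuf2, Ttk, Racgap1 and Ube2c were not kept. Cdca3, which promotes entry into mitosis, rose by 0.65 (SE 0.13, limma adjusted p = 0.037) and the centromere histone gene Cenpa by 0.63 (SE 0.13, adjusted p = 0.047). The level of the list per mouse was -0.0037 in 2995, 0.16 in 3155, 0.37 in 3157 and 0.32 in 3163, against -0.29 in wild type c1, 0.05 in c2, -0.19 in 2989, -0.12 in 2996 and -0.29 in 3164. Mouse 2995 again lay below wild type c2.

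Markers of several cell types differed beside them. Transit-amplifying progenitor markers, 5 of 6 kept, were higher for all 5, and Egfr (0.73, limma adjusted p = 0.0070) and Sox4 (0.57, adjusted p = 0.029) rose by their brightest probes. The other kept Sox4 probe gave 0.08, and the other kept Egfr probes gave 0.11 to 0.49. The mean level of the list was 9.33 to 9.65 in Tlx overexpressing mice and 8.92 to 9.27 in wild type mice. Of 8 neuroblast markers 5 were kept and all 5 were higher, at 10.5 to 10.7 in Tlx overexpressing mice and 10.1 to 10.4 in wild type mice, and Igfbpl1, Tubb2b and Dcx rose by 0.45 to 0.72 (limma adjusted p of 0.033 to 0.038), with 0.27 by the other kept Dcx probe. Tubb3, Cd24a and Dlx5 were not kept.

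Choroid plexus genes, which mark the secretory tissue inside the ventricle next to the SVZ, ran the other way. All 11 of 14 kept were lower in Tlx overexpressing mice, with a median of -0.83, and Calml4 (-1.14, limma adjusted p = 0.016) and Steap1 (-0.83, adjusted p = 0.037) fell, while Kcnj13, Prlr and Slc4a5 were not kept. Their level ran from 8.21 to 9.46 in Tlx overexpressing mice and from 9.36 to 9.97 in wild type mice, lowest in 3155. With this level as a covariate in the fit, 27 of the 31 replication genes were higher, with a median of 0.21, and 3 were at an unadjusted p under 0.05. In that fit Esco2 had a change of 0.45 (limma adjusted p = 0.82). Of the Tlx overexpressing mice, 2995 alone had a choroid plexus level within the wild type range. The fit therefore cannot separate that level from genotype. Without 3155 and c1, which stand at either end of the choroid plexus levels, the median was 0.25 with 29 higher, and Esco2 did not pass (0.47, adjusted p = 0.19).

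The remaining marker lists had smaller medians. All 4 kept ependymal markers were lower, by a median of -0.17, with levels of 8.15 to 8.53 in Tlx overexpressing mice and 8.48 to 8.67 in wild type mice, and 6 of 8 kept microglial markers were higher, by a median of 0.19, at 6.92 to 7.10 in Tlx overexpressing mice and 6.70 to 7.02 in wild type mice. Medians were 0.10 for 7 stem cell and astrocyte markers, 0.09 for 5 of oligodendrocyte progenitors, 0.15 for 3 of oligodendrocytes, 0.0033 for 5 of neurons and -0.15 for 4 of endothelium. In these 7 lists 0 genes passed limma's test, with 1 ependymal gene lower and 4 microglial, 1 stem cell and astrocyte, 1 oligodendrocyte progenitor and 1 endothelial gene higher at an unadjusted p under 0.05. The smallest p in each list belonged to Foxj1 (-0.28), Cx3cr1 (0.37), Slc1a3 (0.30), Sox10 (0.37), Mag (0.15), Drd2 (-0.15) and Cldn5 (0.18), with limma adjusted p of 0.093 to 0.60. These genes do not stand for their lists. Of the stem cell and astrocyte markers 4 were higher and 3 lower, among them Gfap (-0.33) and Aqp4 (-0.27). Of the endothelial markers Cldn5 was higher and 3 were lower. Neuron markers had 3 higher and 2 lower, oligodendrocyte progenitor markers 4 higher and 1 lower, and all 3 oligodendrocyte markers were higher. The part that tissue makeup plays in the replication genes was not tested beyond the values given here.

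**Figure D5:**
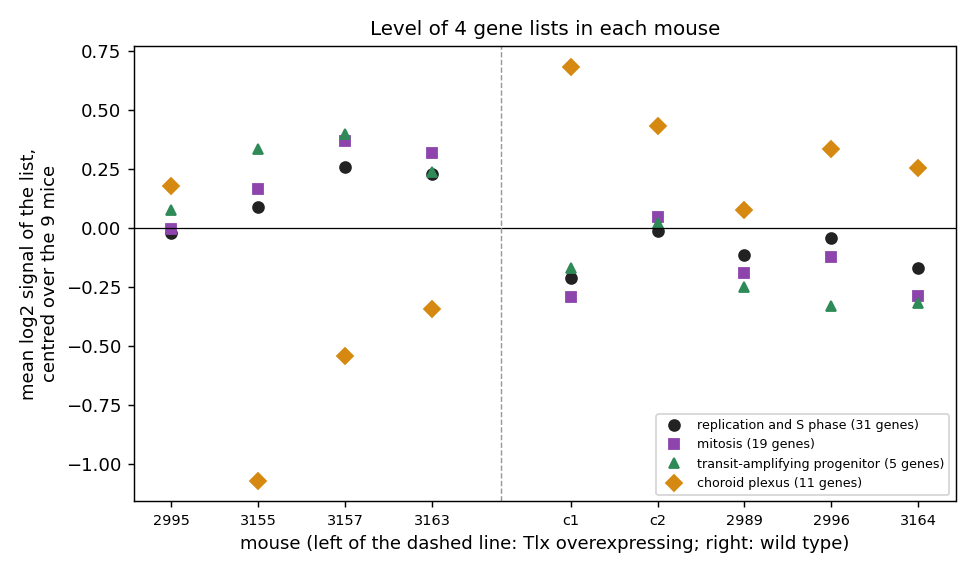
Mean log2 signal of 4 gene lists in each mouse, centred over the 9 mice, with the 4 Tlx overexpressing mice left of the dashed line and the 5 wild type mice right of it. Replication, mitosis and progenitor levels are highest in 3157 and near 0 in 2995, and the choroid plexus level is lowest in 3155 and highest in wild type c1.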

How the data were processed

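Total RNA from laser-microdissected SVZ of 4 Tlx overexpressing and 5 wild type mice was labelled with a commercial amplification kit and hybridised to Illumina mouse arrays, per the labels' protocols. The authors deposited linear intensity values of every probe in 2 tables, and a detection p-value for each probe and array. In 1 table the columns shared their quantiles, so it was normalized between arrays before deposit, although its title calls it otherwise. The other held the signals before that step and was the starting point. The software and the background treatment used before deposit are not given in the sources used here.

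Signals were corrected with normexp against the negative controls that the detection p-values imply (936 steps), at an offset of 16, then quantile-normalized between arrays and turned into log2 values (neqc, limma 3.58.1, R 4.3.3), which compresses changes of dim probes. The 2 arrays of c1 were averaged and counted as 1 mouse. The 2 genotypes were set against each other in limma (lmFit, then eBayes, a two-sided test), and p-values were adjusted by the Benjamini-Hochberg method over the 20401 probes detected (p under 0.05) in at least 4 of 9 mice. Intervals are at 95%. Signals of different probes were not set against each other, and 4 and 5 mice limit the precision.

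Probe symbols came from the platform annotation, updated through RefSeq (GRCm38.p6). Of 45281 probes, 34885 had 1 symbol, 18 several and 10378 none. The members and all gene lists were chosen with earlier results of these data known, so no p is given over a list. Every member is named. Values in every mouse are given for the member past the threshold and the others with the smallest p, to 12 in all. Other genes with such values were picked to show a pattern, so they do not stand for the members without them. From each other list the genes past the threshold are named, and where there are none, 1 to 4 by smallest p. The fit was also run on simulated arrays in which each probe varied independently. Those arrays lack the variation that probes share within a mouse, so they do not give the error rate in these data. Alternatives changed the starting table, background correction, scaling, filter, arrays of c1, probe choice, covariates, weights and mice. Leaving out c1 with c2, or 3155 with c1, was chosen after seeing the data.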

Additional observations from a re-analysis of the deposited data

Results flagged for a closer look

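Of the 62 sets of values tested, 31 genes in each genotype, 3 held a mouse set apart from the others of its genotype by more of the range than Dixon's 95% critical value allows, and chance alone gives about 1 in 20. Mcm3 in wild type mouse c2 was 5.82, and the next wild type mouse had 5.46. Pold1 in wild type mouse c1 was 6.89, and the next had 7.23. Rpa2 in Tlx overexpressing mouse 3155 was 5.92, and the next had 6.16.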

How the results depend on the processing

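The median change of the kept members lay between 0.18 and 0.29 under all 23 alternatives, with 27 to 30 of 31 genes higher (28 of 29 with the stricter detection limit and 33 of 38 with no filter). Counts of calls depended more on the setting. Of all probes, 192 differed, against 122 with an offset of 50, 56 with no filter, 51 with the range of names as a block, 6 with the choroid plexus level in the model, 609 with array weights, 100 without c1 and c2 and 31 without 3155 and c1. Leaving out 1 mouse gave 26 (without 3157) to 758 (without 2995), with 71 without 3155, 39 without 3163, 63 without c1, 84 without 2996 and 123 without 3164. Of the members 1 was called, against 4 with array weights (Esco2, Tyms, Tk1 and Mcm6) and 0 with limma at an offset of 50, with no filter, with the block, with the covariate, without c1 and c2 and without 3155 and c1, where 17, 18, 11, 3, 15 and 16 were higher at an unadjusted p under 0.05 and 1, Ccne1 without 3155 and c1 (-0.28), was lower. With probes of a gene averaged, Tyms was 0.067 and Mcm7 0.27. Leaving out 1 mouse gave 0 to 7 members. There were 7 without 2995 (Mcm5, Esco2, Tyms, Mcm6, Chaf1b, Mcm10 and Cdc45) and 0 without 3155, 3157, 3163, c1 or 2989, with 12 to 18 at an unadjusted p under 0.05. Signs were kept by 27 genes under all alternatives. Rfc4 was -0.044 with the block, -0.16 with the covariate, -0.11 without c1 and c2, -0.059 without 3155 and c1 and -0.048 to 0.12 with 1 mouse left out. With the covariate Gins2 was -0.11 and Fen1 -0.015, and with 1 mouse left out Rpa2 was -0.0093 to 0.093. The causes were not tested. No paired analysis was possible because the labels give no replicate number that the genotypes share. Genes near background, among them Cdc6, Rfc3, Rfc4 and Ccne1, are limited by signal, and 7 members have no change here for that reason.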
